A study of Mus musculus with 22 samples.

Results

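The genes described here serve the piRNA pathway and the silencing of transposons in the male germ line. They were chosen by name, as 32 rows of a count table of 17931 gene symbols, and the pattern that takes every numbered *Tdrd* gene added 0 rows to the named ones. Their values come from RNA-seq of whole testes from 3 WT males and 3 males without functional MLX (MLXKO), untreated, aged 7 months and paired as littermates. The study describes the WT males as verified fertile breeders, and the breeding history of these MLXKO males is not given. It reports that MLXKO males are infertile, with lighter testes and some seminiferous tubules largely devoid of germ cells. MLX is a transcription factor of the MAX network that binds DNA as a heterodimer and responds to glucose and other nutrients. The MLXKO allele was made in 129S4 embryonic stem cells and lacks the exons that encode the DNA-binding and dimerization domain of MLX. The deletion is constitutive, so germ cells and every somatic cell of the testis carry it, and the WT controls carry none of the allele. The methods describe 2 independent mouse lines, and which line these testes came from is not given in the sources used here. The libraries held between 16674678 and 19742726 counts.

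PIWI proteins are Argonaute family members that are guided by piRNAs, small RNAs of the germ line. Long precursor transcripts are cut on the surface of mitochondria, loaded into PIWI proteins, trimmed and methylated at the 3′ end, and the complexes gather with Tudor domain proteins and RNA helicases in perinuclear granules, the intermitochondrial cement and later the chromatoid body. In fetal prospermatogonia the pathway directs DNA methylation to transposons, while in the adult testis it works mainly in spermatocytes and round spermatids. Loss of a core member usually leaves males sterile.

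In WT testes most of these genes were abundant. The median member stood at percentile 84.2 of the genes tested by mean level. Germ cell-restricted members such as *Mael*, *Gtsf1l*, *Ddx4* and *Tdrd6* were detected in every library at high level, so the labelled tissue carried its defining transcripts. By level per length of exon (CPM, the count scaled to the library's TMM-adjusted size, per kb), the highest was *Mael* at 752 in WT and the lowest was *Piwil4*, a PIWI gene of fetal germ cells, at 0.0720. *Piwil4* was counted 6, 8 and 6 times in WT and 8, 18 and 12 times in MLXKO testes, too few for testing, and was the exception among the 32 genes.

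**Figure D1:**
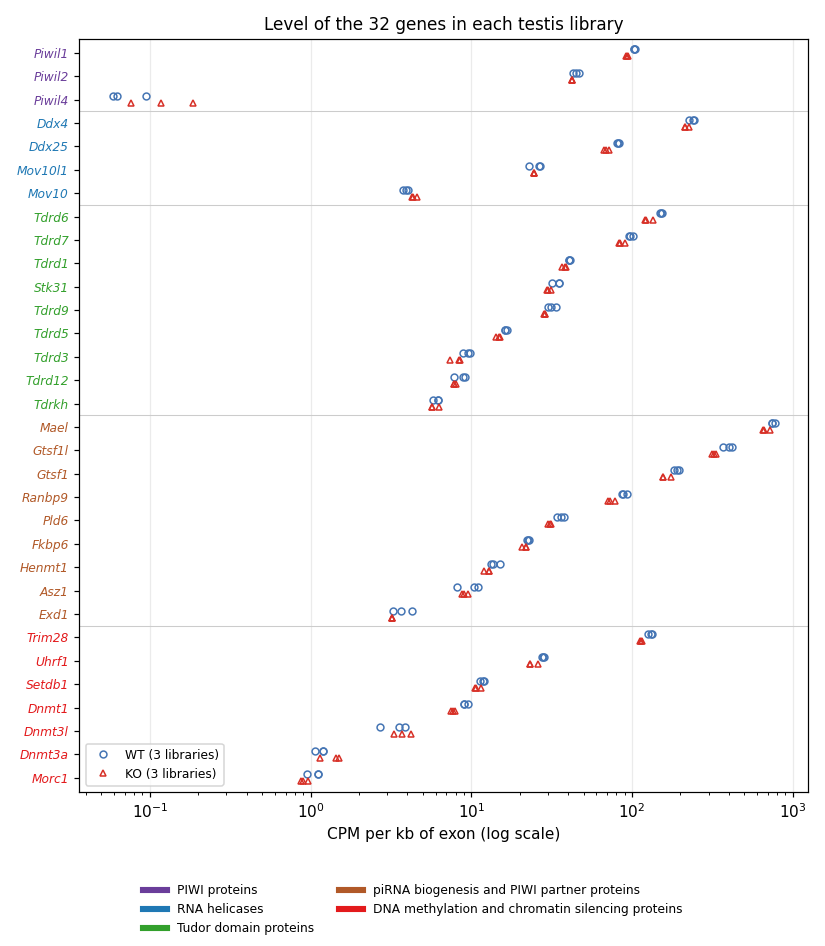
Level of each of the 32 genes in each testis library, in CPM per kb of exon on a log axis, with 3 WT libraries as circles and 3 MLXKO libraries as triangles, grouped by role. Levels run from *Mael*, with means of 752 in WT and 675 in MLXKO testes, down to *Piwil4* with means of 0.0720 and 0.127, and differences between genotypes are small beside differences between genes.

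With TMM scaling, about as many of these genes were modestly lower in MLXKO testes as did not pass the test. Of the 31 members tested, 16 were lower in MLXKO than in WT testes and 0 were higher in edgeR's quasi-likelihood test, where the threshold was an adjusted p of 0.05. The members that passed were *Piwil1*, *Ddx25*, *Tdrd3*, *Tdrd5*, *Tdrd6*, *Tdrd7*, *Tdrd9*, *Stk31*, *Pld6*, *Mael*, *Gtsf1*, *Gtsf1l*, *Ranbp9*, *Dnmt1*, *Uhrf1* and *Trim28*. That is 51.6% of members lower, beside 20.6% of all 14640 genes tested that were lower and 24.8% that were higher by the same rule. By either direction 45.4% of all genes passed. DESeq2 also called 0 members higher. Of the members that did not pass in edgeR, 4 had an unadjusted p under 0.05, *Mov10* and *Dnmt3a* with higher and *Ddx4* and *Tdrd1* with lower values. The median log2 fold change (LFC) over the 31 members was -0.16, beside 0.03 over all genes tested, and it ranged from -0.29 for *Gtsf1l* to 0.25 for *Dnmt3a*. No member reached an absolute LFC of 1.

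Under TMM scaling the shift was shared by the 3 testes of each genotype. The CPM sums, overlaps and pair ratios here, and the overlaps of single genes below, all use TMM-adjusted library sizes. They were not repeated with library size alone, where the median LFC of the members was -0.02. Summed over the members, CPM values were 7685, 7771 and 7579 in WT1, WT2 and WT3 and 7001, 6586 and 6688 in KO1, KO2 and KO3. Every MLXKO sum was therefore below every WT sum, with means of 7678 ± 96.4 and 6758 ± 216 CPM (SD, n = 3 each). In each MLXKO library 28 of the 31 members were below their WT mean, as were 11 in WT1, 12 in WT2 and 21 in WT3. The share of all genes below their WT mean was not computed. The median log2 ratio of all genes tested to their WT mean was 0.01 to 0.03 in the MLXKO libraries. The 3 MLXKO values lay below all 3 WT values for 22 members (71.0%, beside 25.9% of all genes tested) and above them for *Mov10* alone (3.23%, beside 30.3%), while 56.2% of all genes were without overlap in either direction. In littermate pairs 1, 2 and 3, the median log2 ratio of the members was -0.14, -0.19 and -0.14. Among the 16 members past the threshold, KO2 held the lowest of the MLXKO values for 13.

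**Figure D2:**
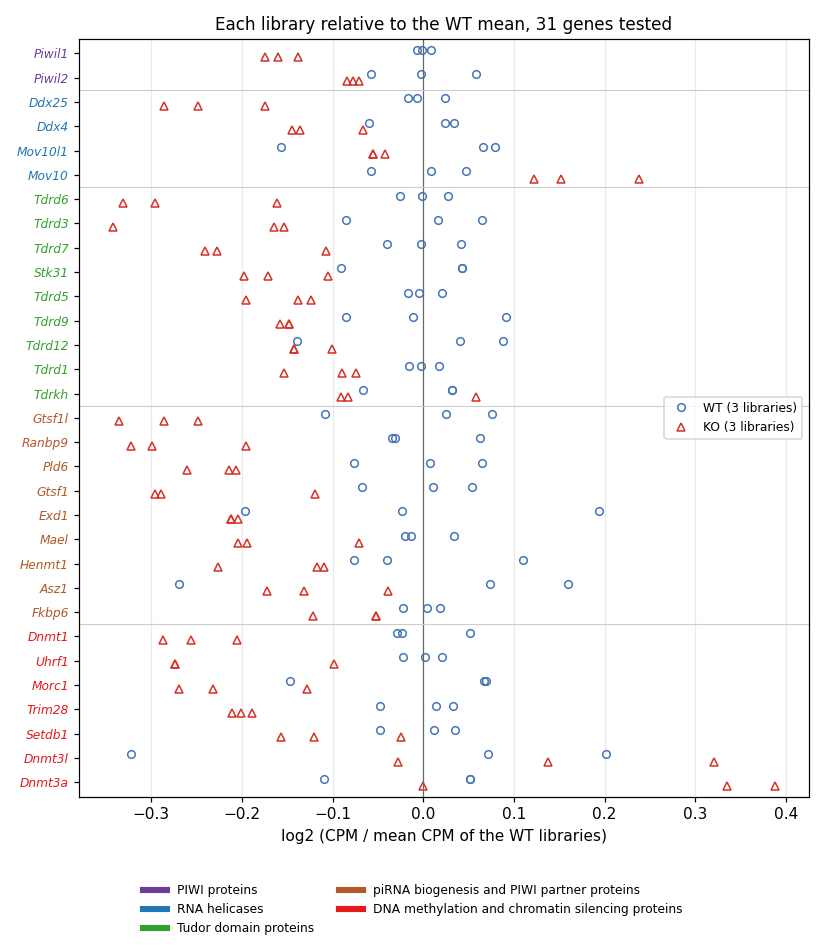
Each library's CPM relative to the mean of the WT libraries, on a log2 scale, for the 31 genes tested, with WT libraries as circles and MLXKO libraries as triangles. For 22 genes the MLXKO triangles lie left of all WT circles, for *Mov10* they lie to the right of them, and for 8 genes the groups overlap.

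How many members passed depended on the scaling and on single libraries. TMM, a normalization that assumes most genes do not differ, gave the WT libraries factors of 0.944 to 0.961 and the MLXKO libraries factors of 1.02 to 1.07. With counts scaled by library size alone, 4 members were lower (*Ddx25*, *Tdrd6*, *Gtsf1l* and *Ranbp9*) and 2 were higher (*Mov10*, LFC 0.31, edgeR adjusted p = 0.00895, and *Dnmt3a*, LFC 0.39, edgeR adjusted p = 0.0211). The shares of all genes then became 8.66% lower and 36.5% higher, and the median LFC of all genes moved to 0.16 and that of the members to -0.02. The distance between both medians was -0.18 under either scaling. A change of scaling shifts every LFC by about the same amount, so this distance stays nearly the same by construction. Leaving out WT1 left 10 members lower and leaving out KO2 left 8, while leaving out each other library left 12 to 16. The share of all genes that were lower was 16.9% without WT1, 14.4% without KO2 and 14.8% to 23.0% without each other library. *Ddx25*, *Tdrd6*, *Gtsf1l* and *Ranbp9* were past the threshold in each of 15 fits, and *Pld6*, *Gtsf1*, *Dnmt1* and *Trim28* joined them in each fit that left out a library.

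**Figure D3:**
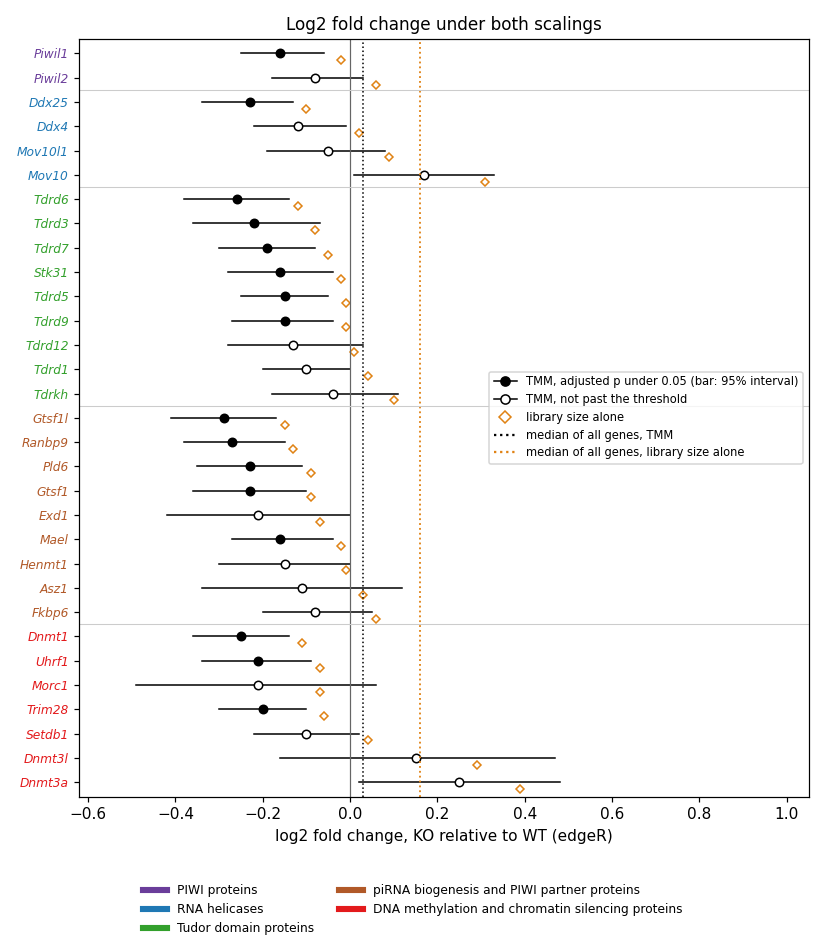
LFC of MLXKO relative to WT from edgeR for the 31 genes tested, with 95% intervals under TMM (filled points past an adjusted p of 0.05, open points not) and the estimate under library size alone (diamonds), and dotted lines at the median of all genes under each scaling (0.03 and 0.16). Of the TMM estimates, 28 lie below 0 and 3 above it, while under library size alone the diamonds of 9 further genes move above 0.

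Cell type markers moved in the same libraries. Of 12 spermatocyte markers 7 were lower past the threshold in edgeR's test and 0 higher, with summed CPM of 3389 to 3493 in WT and 2836 to 3097 in MLXKO testes. All 10 round spermatid markers were lower (2432 to 2494 CPM in WT, 1972 to 2141 in MLXKO), as were all 11 elongating spermatid markers (29408 to 30401 CPM in WT, 18188 to 21862 in MLXKO). For the round spermatid list the median LFC was -0.26, for the elongating spermatid list -0.53, and for the spermatocyte list -0.19, so the members' median of -0.16 lay nearest to that of the spermatocyte markers. Spermatogonia markers were mixed, with 1 of 10 lower, 2 higher and a sum of 157 to 162 CPM in WT and 173 to 182 in MLXKO testes. Somatic markers were higher, 10 of 10 for Sertoli cells (943 to 988 CPM in WT, 1449.9 to 1766 in MLXKO) and 7 of 7 for Leydig cells (840.5 to 866 CPM in WT, 1822 to 2388 in MLXKO). Macrophage markers were higher in 8 of 8 (71.4 to 75.7 and 132 to 139.7 CPM), peritubular myoid markers in 4 of 5 (72.1 to 87.1 and 108 to 119 CPM) and endothelial markers in 2 of 5 (33.6 to 42.5 and 48.3 to 55.8 CPM). No marker in these lists was at 0 in any library. The part of cell composition in the members' differences was not tested, and in whole testes fewer cells of a type and less RNA per cell cannot be told apart.

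**Figure D4:**
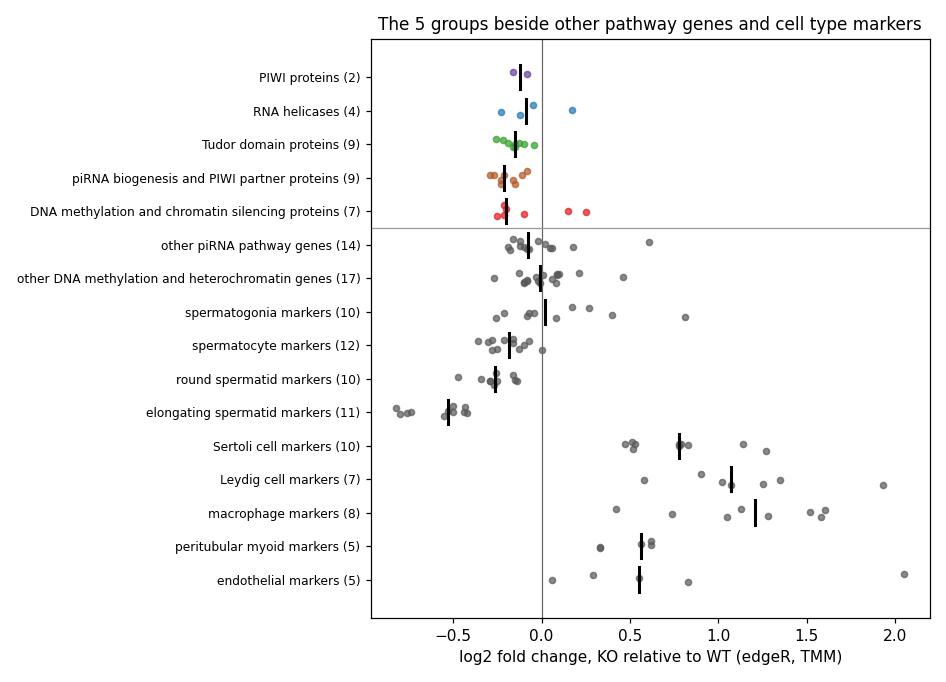
LFC of MLXKO relative to WT (edgeR, TMM) for each gene tested of the 5 role groups, of the other lists and of the cell type markers, with each list's median as a black bar and its number of genes in brackets. Medians run from -0.53 for elongating spermatid markers to 1.21 for macrophage markers, and the 5 role groups lie between -0.21 and -0.08.

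The promoters of 29 members are in RefSeq's GRCm38.p6 annotation, as 46 windows from 250 bases before to 50 bases after a start site, and *Piwil2*, *Tdrd6* and *Morc1* have no entry. They are shown because MLX is known to bind the E-box CACGTG with its partners, and because MYBL1, the known activator of many piRNA pathway genes at meiosis, binds sequences of the form AACNGNC. The E-box was in 15 of the 46 windows (32.6%), beside 7.15% of all 32851 windows and 9.29% of those of genes tested here. By gene, 12 of 29 members held it (41.4%), beside 11.1% of the 11287 genes tested that have an entry. The 12 were *Ddx25*, *Ddx4*, *Dnmt3a*, *Dnmt3l*, *Fkbp6*, *Mael*, *Mov10l1*, *Piwil1*, *Pld6*, *Stk31*, *Tdrd1* and *Tdrd9*. AACNGNC, on either strand, was in 24 windows (52.2%, beside 32.8% of all and 33.4% of those of genes tested). By gene 18 of 29 members held AACNGNC (62.1%, beside 38.0% of genes tested). The CRE TGACGTCA was in 0 windows (beside 1.79% of all and 2.81% of those of genes tested). These motifs did not overlap in the promoters printed here. Of the members with an E-box 6 of 12 were lower in MLXKO testes past the threshold, and of those without it 9 of 17. For AACNGNC the numbers were 9 of 18 with it and 6 of 11 without it. A match is a description of the letters and not a binding site, and windows of one gene can overlap.

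The first pair printed here belongs to the members with the largest decreases among those with an entry, and the other promoters show an E-box in a helicase, a PIWI gene and the germ cell marker *Ddx4*, chosen after their values were seen. Each is given on its gene's strand, 5′ to 3′, with the motifs found in capitals. Positions count from the start site of the window. For *Ranbp9*, *Piwil1* and *Ddx4* that start site lies inside the gene's full span, so a motif at a negative position can lie inside it too.
*Gtsf1l*, chr2:163089552-163089851, minus strand, with none of the 3 motifs: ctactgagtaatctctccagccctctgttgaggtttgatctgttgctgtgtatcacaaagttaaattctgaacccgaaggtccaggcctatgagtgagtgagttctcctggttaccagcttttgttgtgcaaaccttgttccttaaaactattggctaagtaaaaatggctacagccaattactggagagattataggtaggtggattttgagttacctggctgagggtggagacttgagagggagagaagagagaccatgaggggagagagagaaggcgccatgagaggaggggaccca
*Ranbp9*, chr13:43480924-43481223, minus strand, with AACNGNC at -112: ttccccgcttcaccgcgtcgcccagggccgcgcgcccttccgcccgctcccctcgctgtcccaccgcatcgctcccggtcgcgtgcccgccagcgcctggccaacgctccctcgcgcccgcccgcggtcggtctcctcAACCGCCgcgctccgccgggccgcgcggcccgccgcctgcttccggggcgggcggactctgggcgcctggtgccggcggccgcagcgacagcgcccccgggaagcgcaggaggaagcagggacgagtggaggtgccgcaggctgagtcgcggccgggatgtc
*Ddx25*, chr9:35558421-35558720, minus strand, with an E-box at 38: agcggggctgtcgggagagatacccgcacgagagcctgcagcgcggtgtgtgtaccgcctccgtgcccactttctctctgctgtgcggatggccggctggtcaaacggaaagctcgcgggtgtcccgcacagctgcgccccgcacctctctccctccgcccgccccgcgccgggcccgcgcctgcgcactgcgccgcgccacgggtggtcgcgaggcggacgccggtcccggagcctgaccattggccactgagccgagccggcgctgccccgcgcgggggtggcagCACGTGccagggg
*Piwil1*, chr5:128735996-128736295, plus strand, with E-boxes at -179 and -154 and AACNGNC at -189, -75 and -66, the last pair on the other strand: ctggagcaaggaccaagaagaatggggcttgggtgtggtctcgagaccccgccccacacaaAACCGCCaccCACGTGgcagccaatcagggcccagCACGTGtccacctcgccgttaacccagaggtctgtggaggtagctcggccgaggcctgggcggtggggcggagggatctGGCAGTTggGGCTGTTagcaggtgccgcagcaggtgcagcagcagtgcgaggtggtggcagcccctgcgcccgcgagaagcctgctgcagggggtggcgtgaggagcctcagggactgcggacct
*Ddx4*, chr13:112652261-112652560, minus strand, with an E-box at -29: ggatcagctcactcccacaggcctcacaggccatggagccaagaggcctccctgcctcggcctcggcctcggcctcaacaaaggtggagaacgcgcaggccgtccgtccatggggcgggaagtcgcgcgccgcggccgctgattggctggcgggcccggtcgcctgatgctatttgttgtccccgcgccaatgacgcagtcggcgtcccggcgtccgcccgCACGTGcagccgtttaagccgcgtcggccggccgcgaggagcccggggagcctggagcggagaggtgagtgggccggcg

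PIWI proteins are the effectors of the pathway. *Piwil1* encodes MIWI, the PIWI protein of pachytene spermatocytes and round spermatids, and lies on chromosome 5 of mm10 from 128736071 to 128755474. Its level was 453, 448 and 449.6 CPM in WT and 403, 399 and 409 CPM in MLXKO testes. The groups did not overlap, and *Piwil1* fell by 0.16 on the log2 scale (SE 0.04, edgeR adjusted p = 0.0126, with each pair lower). Its adjusted p from edgeR was 0.0519 without WT1 and 0.0607 without KO2. With library size alone its LFC was -0.02 (edgeR adjusted p = 0.706). *Piwil2* encodes MILI, which is present from fetal germ cells to spermatids. It had 246, 227 and 236 CPM in WT and 224, 225 and 223 CPM in MLXKO testes, an LFC of -0.08 with a 95% interval from -0.18 to 0.03 (edgeR adjusted p = 0.202), while its LFC was 0.06 with library size alone. All 3 MLXKO values of *Piwil2* lay below the WT values. Per kb of exon *Piwil1* was the more abundant of both in WT testes, by 2.31 times.

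RNA helicases unwind and remodel RNA in piRNA processing and in germ granules. *Ddx25*, also called GRTH, is a helicase of the chromatoid body that Leydig cells and germ cells express (chromosome 9, 35541848 to 35558470). It had 563, 575 and 559 CPM in WT and 501, 464 and 476 CPM in MLXKO testes. The MLXKO values were all lower, and the LFC was -0.23 (SE 0.05, 95% interval -0.34 to -0.13, edgeR adjusted p = 0.00246). *Ddx4*, the vasa homologue MVH and a general germ cell marker, had 723, 728 and 682 CPM in WT and 679, 643 and 647 CPM in MLXKO testes. Its groups were only just apart, and its LFC of -0.12 (SE 0.05) did not pass over all genes (edgeR adjusted p = 0.0794). It passed with DESeq2 (adjusted p = 0.0226) and without KO1 (edgeR adjusted p = 0.00771), and its LFC was 0.02 with library size alone.

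*Mov10l1* encodes the helicase that feeds precursor transcripts into piRNA processing. Its 112, 111 and 95.1 CPM in WT and 102, 103 and 102 CPM in MLXKO testes overlapped, with an LFC of -0.05 (95% interval -0.19 to 0.08, edgeR adjusted p = 0.516), while the LFC was 0.09 with library size alone. *Mov10*, its widely expressed paralog that restrains retroelements in somatic cells as well, was the 1 member with every MLXKO value above every WT value. It had 22.7, 21.1 and 22.1 CPM in WT and 24.4, 23.9 and 25.9 CPM in MLXKO testes, an LFC of 0.17 (SE 0.07, edgeR adjusted p = 0.0759). Within libraries, where scaling plays no part, the ratio of *Mov10* to *Mov10l1* counts was 0.202, 0.190 and 0.232 in WT and 0.240, 0.233 and 0.253 in MLXKO testes (exact permutation test, two-sided p = 0.1, the smallest that 3 against 3 allow, adjusted p = 0.133 over 4 ratios). The permutation test took no account of the littermate pairs. This ratio was chosen after the values were seen, so its test cannot decide whether both genes changed differently.

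Tudor domain proteins bind the methylated arginines of PIWI proteins and hold germ granules together. Of 9 tested, 6 were lower in MLXKO testes and 0 higher, with a median LFC of -0.15. *Tdrd6*, a scaffold of the chromatoid body (chromosome 17, 43615334 to 43631846), was the most abundant of them and changed most. It had 1086, 1047 and 1065 CPM in WT and 953, 847 and 868 CPM in MLXKO testes. With no overlap, *Tdrd6* fell by 0.26 on the log2 scale (SE 0.06, 95% interval -0.38 to -0.14, edgeR adjusted p = 0.00292). *Tdrd7*, which shapes the chromatoid body in spermatids, had 377, 399 and 387 CPM in WT and 359.8, 328 and 331 CPM in MLXKO testes (LFC -0.19, SE 0.05, edgeR adjusted p = 0.0117). *Tdrd3*, a broadly expressed partner of topoisomerase, had 59.7, 53.8 and 57.7 CPM in WT and 50.9, 45.0 and 51.3 CPM in MLXKO testes (LFC -0.22, SE 0.07, edgeR adjusted p = 0.0190). In both genes every MLXKO value was below every WT value. With library size alone neither passed, with an LFC of -0.05 for *Tdrd7* (edgeR adjusted p = 0.274) and -0.08 for *Tdrd3* (edgeR adjusted p = 0.358).

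Smaller decreases were seen for 3 further Tudor genes. *Tdrd5*, needed for spermatid development and transposon repression, was at 113 ± 1.34 CPM in WT and 102 ± 2.54 in MLXKO testes (SD, n = 3 each, LFC -0.15, edgeR adjusted p = 0.0181). *Tdrd9*, a Tudor protein with a helicase domain that works with MIWI2, was at 172 ± 10.2 and 154 ± 0.858 CPM (SD, n = 3 each, LFC -0.15, edgeR adjusted p = 0.0321). *Stk31*, which joins a Tudor domain to a kinase domain, was at 109.9 ± 5.58 and 98.3 ± 3.23 CPM (SD, n = 3 each, LFC -0.16, edgeR adjusted p = 0.0286). All 3 lost the call under some settings. With library size alone the LFC was -0.01 for *Tdrd5*, -0.01 for *Tdrd9* and -0.02 for *Stk31* (edgeR adjusted p from 0.789 to 0.832). When DESeq2 blocked on the littermate pair, *Tdrd5* had an adjusted p of 0.0618 and *Stk31* one of 0.0719. The adjusted p from edgeR of the 5 genes other than *Tdrd6* rose above the threshold without some libraries: for *Tdrd3* to 0.0767 without WT1, 0.0527 without WT3 and 0.0946 without KO2, and for *Tdrd5* to 0.0501, 0.0617 and 0.0916 without the same libraries. For *Tdrd7* it was 0.0605 without WT2, 0.0611 without KO2 and 0.0555 without KO3. For *Tdrd9* it lay between 0.0740 and 0.149 without WT1, WT2, KO2 or KO3, and for *Stk31* between 0.0514 and 0.109 without WT1, WT2, KO1 or KO2.

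The 3 other Tudor genes did not pass. *Tdrd1*, a MILI partner of the intermitochondrial cement, had 224, 221 and 219 CPM in WT and 199, 208 and 210.3 CPM in MLXKO testes. Its values did not overlap, its LFC was -0.10 (SE 0.05, edgeR adjusted p = 0.0851), and it passed with DESeq2 (adjusted p = 0.0436) and with median-ratio size factors in edgeR (adjusted p = 0.0422). *Tdrd12*, which acts in secondary piRNA production, had an LFC of -0.13 (edgeR adjusted p = 0.158, and 0.0459 without WT3). *Tdrkh*, the mitochondrial Tudor protein that recruits the piRNA trimmer, had 37.9, 37.9 and 35.4 CPM in WT and 38.6, 35.0 and 34.8 CPM in MLXKO testes, an LFC of -0.04 (95% interval -0.18 to 0.11, edgeR adjusted p = 0.681). With library size alone the LFC was 0.04 for *Tdrd1*, 0.01 for *Tdrd12* and 0.10 for *Tdrkh*. Of the exon length of *Tdrkh*, 36.7% is shared with *Oaz3* on the opposite strand, a spermatid gene at 1946 ± 24.5 CPM in WT and 1325 ± 116 in MLXKO testes (SD, n = 3 each, LFC -0.55, edgeR adjusted p = 7.27e-05). Whether counting used strand is not given in the sources used here, so the *Tdrkh* value is uncertain.

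Biogenesis factors and PIWI partners held the largest decreases. Of 9 tested, 5 were lower and 0 higher, with a median LFC of -0.21. *Gtsf1l* encodes a zinc finger paralog of the PIWI cofactor GTSF1 (chromosome 2, 163087031 to 163089601), and its promoter is the one printed above without a motif. It had 301, 342 and 330.2 CPM in WT and 273, 257 and 266 CPM in MLXKO testes. *Gtsf1l* was 18.2% lower by the fitted value, with no overlap between groups (LFC -0.29, SE 0.06, 95% interval -0.41 to -0.17, edgeR adjusted p = 0.00177). *Gtsf1* itself, which stimulates target cleavage by PIWI proteins, had 274, 266 and 252 CPM in WT and 243, 215 and 216 CPM in MLXKO testes (LFC -0.23, SE 0.06, edgeR adjusted p = 0.00791). With library size alone the LFC of *Gtsf1* was -0.09 (edgeR adjusted p = 0.129). Within libraries the ratio of *Gtsf1l* to *Gtsf1* counts was 1.23 ± 0.117 in WT and 1.18 ± 0.0557 in MLXKO testes (SD, n = 3 each). The ratios, also chosen after the values were seen, overlapped (unpaired exact permutation test, two-sided p = 0.6). The paralogs were not shown to differ from each other in their change.

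*Ranbp9* encodes a scaffold protein that associates with MVH in germ cells (chromosome 13, 43402673 to 43481283). It had 447, 478 and 448 CPM in WT and 399.8, 366 and 372 CPM in MLXKO testes, without overlap (LFC -0.27, SE 0.05, 95% interval -0.38 to -0.15, edgeR adjusted p = 0.00182). Of its exon length 8.83% is shared with *Nol7* on the opposite strand, which had 12.4 ± 1.73 CPM in WT and 14.0 ± 1.38 in MLXKO testes (SD, n = 3 each). *Pld6*, the mitochondrial endonuclease zucchini homologue that cuts piRNA precursors, had 60.1, 63.7 and 66.3 CPM in WT and 54.6, 54.9 and 52.9 CPM in MLXKO testes. Its groups did not overlap (LFC -0.23, SE 0.05, edgeR adjusted p = 0.00617). *Pld6* is the 1 member on chromosome 11, which also holds *Mlx*, at a distance of 41.3 Mb. *Mael*, an HMG domain protein of germ granules and the most abundant member, had 1291, 1334 and 1285 CPM in WT and 1241, 1131 and 1139 CPM in MLXKO testes (LFC -0.16, SE 0.05, edgeR adjusted p = 0.0334). KO1 lay closest to WT for *Mael*, and the call was the least stable of the 16. Its adjusted p from edgeR was 0.0868 with the littermate pair as a block and lay between 0.0824 and 0.145 without WT1, WT2, WT3, KO2 or KO3. With library size alone the LFC was -0.02 for *Mael* (edgeR adjusted p = 0.701) and -0.09 for *Pld6* (edgeR adjusted p = 0.214).

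The 4 other biogenesis genes, *Asz1*, *Fkbp6*, *Henmt1* and *Exd1*, did not pass, and their WT means lay between 22.5 and 39.6 CPM. *Asz1*, a mitochondrial partner of PLD6, had 29.3, 31.1 and 23.1 CPM in WT and 27.1, 25.4 and 24.7 CPM in MLXKO testes, with WT3 below all other libraries (LFC -0.11, 95% interval -0.34 to 0.12, edgeR adjusted p = 0.414). Without WT3 its LFC was -0.23 (edgeR adjusted p = 0.0481). *Exd1*, an adaptor of piRNA biogenesis, had 25.7, 22.1 and 19.6 CPM in WT and 19.4, 19.4 and 19.5 CPM in MLXKO testes (LFC -0.21, SE 0.10, edgeR adjusted p = 0.10, and 0.0265 without WT3). *Henmt1*, which methylates the 3′ end of piRNAs, had an LFC of -0.15 (edgeR adjusted p = 0.104), and *Fkbp6*, a cochaperone of piRNA loading, had one of -0.08 (edgeR adjusted p = 0.300). In *Exd1*, *Henmt1* and *Fkbp6* the MLXKO values were all below the WT values, as they were for 25.9% of all genes tested. For *Exd1* the closest values were 19.6 CPM in WT3 and 19.5 CPM in KO3. With library size alone the LFC was 0.03 for *Asz1* and 0.06 for *Fkbp6*.

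The DNA methylation and chromatin genes act downstream of nuclear PIWI proteins or silence retroelements by other routes, and many of them are expressed in somatic cells too. Of 7 tested, 3 were lower and 0 higher, with a median LFC of -0.20 and the widest spread of the 5 groups. *Dnmt1*, the maintenance DNA methyltransferase (chromosome 9, 20907206 to 20959888), had 66.4, 66.1 and 69.9 CPM in WT and 56.5, 55.3 and 58.5 CPM in MLXKO testes. *Dnmt1* fell by 0.25 on the log2 scale, with no overlap (SE 0.05, 95% interval -0.36 to -0.14, edgeR adjusted p = 0.00246). *Uhrf1*, which brings DNMT1 to hemimethylated DNA, had 120.5, 119 and 117 CPM in WT and 111, 98.3 and 98.3 CPM in MLXKO testes (LFC -0.21, SE 0.06, edgeR adjusted p = 0.0101, and 0.0552 without KO2 and 0.0532 without KO3). *Trim28*, the KAP1 corepressor that zinc finger proteins recruit to retroelements, had 525, 548 and 555 CPM in WT and 472, 469 and 476 CPM in MLXKO testes (LFC -0.20, SE 0.05, edgeR adjusted p = 0.00465). For these 3 genes the MLXKO values were all below the WT values. With library size alone the LFC was -0.11 for *Dnmt1*, -0.07 for *Uhrf1* and -0.06 for *Trim28*, and none passed (edgeR adjusted p from 0.115 to 0.217). *Setdb1*, the H3K9 methyltransferase that TRIM28 recruits, was at 80.2 ± 2.37 CPM in WT and 74.8 ± 3.56 in MLXKO testes (SD, n = 3 each), with overlapping values (LFC -0.10, edgeR adjusted p = 0.142, while the LFC was 0.04 with library size alone). *Morc1*, a GHKL ATPase of fetal germ cells, was low, at 6.83 ± 0.576 CPM in WT and 5.92 ± 0.300 in MLXKO testes (SD, n = 3 each, LFC -0.21, 95% interval -0.49 to 0.06, edgeR adjusted p = 0.189).

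The de novo methyltransferase gene *Dnmt3a* and its germ cell cofactor *Dnmt3l* had positive LFCs. *Dnmt3a* had 19.8, 19.8 and 17.7 CPM in WT testes and 24.1 and 25.0 CPM in KO2 and KO3. The LFC was 0.25 (95% interval 0.02 to 0.48, edgeR adjusted p = 0.0733). KO1 lay within the WT range and KO2 and KO3 above it, and without KO1 the LFC was 0.36 (edgeR adjusted p = 0.00325). *Dnmt3l* had 8.07, 11.6 and 10.6 CPM in WT and 9.90, 11.1 and 12.6 CPM in MLXKO testes, which overlapped (LFC 0.15, edgeR adjusted p = 0.410). Within libraries the ratio of *Dnmt3a* to *Dnmt1* counts was 0.298, 0.300 and 0.253 in WT and 0.339, 0.435 and 0.427 in MLXKO testes. Every MLXKO ratio was above every WT ratio, a difference of 0.49 on the log2 scale (higher in 3 of 3 pairs, exact permutation test, two-sided p = 0.1, the smallest that 3 against 3 allow, adjusted p = 0.133 over 4 ratios). The ratio of *Piwil1* to *Piwil2* counts was 1.91 ± 0.0673 in WT and 1.80 ± 0.0281 in MLXKO testes (SD, n = 3 each), also without overlap and with the same exact p of 0.1. These 4 ratios were chosen after the values were seen, so their tests cannot decide whether the genes of a ratio changed differently. Their permutation tests also took no account of the littermate pairs.

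Of the 15 members that did not pass, the 95% intervals of *Ddx4*, *Tdrd12*, *Asz1*, *Henmt1*, *Exd1*, *Morc1* and *Setdb1* included -0.22, the median LFC of the members that did. For those 7 genes these libraries could not tell a decrease of that size from a smaller one. The intervals of the other 8, among them *Piwil2*, *Mov10l1*, *Tdrd1*, *Tdrkh* and *Fkbp6*, did not include it. That median comes from members selected by the same test in the same libraries. The comparison therefore cannot by itself set those 8 genes apart from the members that passed. The interval of *Tdrd1* began at -0.20, and that gene passed with DESeq2 (adjusted p = 0.0436).

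A list of other piRNA pathway genes was measured for comparison, and 14 of its 15 genes were tested. Of these 3 were lower (21.4%, beside 20.6% of all genes) and 1 higher, with a median LFC of -0.07. With library size alone 0 were lower and 4 higher, *Snd1* (LFC 0.75), *Prmt5* (0.19), *Wdr77* (0.20) and *Cnot7* (0.16), when the median of all genes was 0.16. *Mybl1*, which encodes the transcription factor that activates pachytene piRNA clusters and many of the genes above, was at 98.6 ± 2.98 CPM in WT and 88.0 ± 3.07 in MLXKO testes (SD, n = 3 each, LFC -0.16, SE 0.05, edgeR adjusted p = 0.0182, and 0.0541 when DESeq2 blocked on the pair). The Tudor gene *Rnf17* (LFC -0.18, edgeR adjusted p = 0.0113) and the kinesin gene *Kif17*, whose product associates with MIWI (LFC -0.19, edgeR adjusted p = 0.0245), were the others. These 3 calls were lost without KO2 or KO3 (edgeR adjusted p from 0.0523 to 0.120), which left 1 of the 4 genes past the threshold. Without WT1 *Mybl1* had an edgeR adjusted p of 0.0786, without WT2 *Rnf17* had one of 0.0622 and *Kif17* one of 0.109, and without WT3 *Kif17* had one of 0.0517. With library size alone the LFCs of the 3 genes lay between -0.05 and -0.03 and did not pass. *Snd1*, a Tudor-staphylococcal nuclease found in many cell types, went the other way, from 22.0 ± 0.836 CPM in WT to 33.6 ± 2.31 in MLXKO testes (SD, n = 3 each, LFC 0.61, SE 0.07, edgeR adjusted p = 0.000117). Of the piRNA pathway proteins listed here with a Tudor domain, *Snd1* was the one called higher.

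Among 17 other DNA methylation and heterochromatin genes tested, 1 was lower (5.88%, beside 20.6% of all genes) and 1 higher (beside 24.8% of all genes). Their median LFC was -0.01. Both encode partners in the H3K9 methyltransferase complex GLP-G9a. *Ehmt2*, encoding G9a, had 440.1, 473 and 466 CPM in WT and 415, 369.9 and 361 CPM in MLXKO testes (LFC -0.27, SE 0.06, edgeR adjusted p = 0.00413). *Ehmt1*, encoding GLP, was at 11.2 ± 0.75 CPM in WT and 15.4 ± 0.402 in MLXKO testes (SD, n = 3 each, LFC 0.46, SE 0.09, edgeR adjusted p = 0.00194). Neither pair of groups overlapped, and both calls held in all 14 alternatives.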

How the data were processed

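RNA from whole testes of 3 WT and 3 MLXKO males was sequenced as paired-end reads, which the authors aligned to mm10 with TopHat. The deposited values are whole-number counts per gene symbol, without normalization, and the tool, annotation and strand setting of the counting are not given in the sources used here. The table also holds 6 columns of the authors' own comparison (fold changes and p-values), which were not used. ChIP-Seq samples were not analysed here.

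Of 17933 rows, 2 repeated another. Tests used edgeR 4.0.16 in R 4.3.3, with filterByExpr (minimum count 10), TMM, a quasi-likelihood test of genotype alone, and adjustment by Benjamini-Hochberg for 14640 genes. CPM values use TMM-adjusted library sizes. SE is the absolute LFC over the root of F. Exon length is from GENCODE for mm10, and gene coordinates and promoters are from RefSeq. Code was tested on simulated data. Libraries of one genotype differed by more than sampling noise.

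The titles number the samples as paired replicates and the methods name littermates. Deviations from group means correlated at 0.145, 0.0363 and 0.121 within pairs and at most at 0.0330 otherwise. A figure legend of the study calls the comparison pair-wise, but the methods give no model, so the pair was fitted as an alternative.

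The members and lists were chosen with earlier results of these data known. Every member is named, with the genes of the other lists past the threshold. *Spocd1*, *Dnmt3c* and *Adgre1* had no row under these symbols and were not analysed here. The alternatives were DESeq2 1.42.0, other scalings and filters, the pair as a block and leaving out each library.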

Additional observations from a re-analysis of the deposited data

How the results depend on the processing

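Of 14 alternatives, library size alone moved the members most, to 4 lower and 2 higher with a median LFC of -0.02, and it turned 9 uncalled LFCs positive: *Piwil2* 0.06, *Ddx4* 0.02, *Mov10l1* 0.09, *Tdrd1* 0.04, *Tdrd12* 0.01, *Tdrkh* 0.10, *Asz1* 0.03, *Fkbp6* 0.06 and *Setdb1* 0.04. It also gave 8 other DNA methylation and heterochromatin genes past the threshold (1 lower and 7 higher) in place of 2. Of all genes, 8.66% were then lower and 36.5% higher. The median of all genes moves with that scaling by construction. DESeq2 gave 18 members lower, edgeR with median-ratio size factors 17, and upper-quartile factors, no filter or a minimum of 1 CPM in 3 libraries each gave 16. With the replicate block for littermate pairs, 15 members were lower in edgeR (*Mael* lost) and 14 in DESeq2 (*Tdrd5* and *Stk31* lost, and *Ddx4* and *Tdrd1*, which DESeq2 called without the block, not called), and it changed no other member's call. Without each library in turn, 8 to 16 members were lower and 0 to 1 higher, with medians from -0.19 to -0.15, beside 14.4% to 23.0% of all genes lower and 20.0% to 27.0% higher. The other piRNA pathway genes past the threshold then numbered 1 to 5, and were 2 without WT2, 1 without KO2 and 1 without KO3. The cause of these changes was not tested. With 3 testes per genotype, *Dnmt3l* and *Morc1*, the least abundant tested, had the largest SEs (0.14 and 0.12).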
